A study of Rattus norvegicus with 15 samples.

Results

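Striatal gene expression of rats that received L-DOPA together with intraventricular PD98059 was compared with that of rats that received L-DOPA alone. The members were chosen by array title: the 3 arrays of the LID + PD98059 group and the 3 arrays of the LID group, 6 of 15 arrays in all, read over the 18511 of 36685 transcripts that carry exactly 1 gene symbol. All animals were adult male Sprague-Dawley rats (7 weeks old), and each array held RNA from the striatum of the lesioned side of 1 rat. All 6 rats had a unilateral 6-OHDA lesion of the dopamine pathway from the midbrain to the striatum and received L-DOPA daily for 3 weeks, which produces abnormal involuntary movements (L-DOPA-induced dyskinesia, LID). The LID + PD98059 rats also had PD98059 infused into the lateral ventricle daily for 12 days, beginning at day 10 of L-DOPA. The LID + Vehicle group (3 rats) had the same lesion, L-DOPA, cannula and infusion with the solvent alone, the PD group (3 rats) had the lesion without L-DOPA, and the Normal group (3 rats) had a sham operation. Tissue was collected at day 21 of L-DOPA. An interval of 4 h since the last dose is stated for the perfused rats of each group and is not repeated for the decapitated rats used for the arrays.

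A cannula was implanted in each rat of the LID + PD98059 and LID + Vehicle groups, and none is described for the LID group. In this comparison the drug therefore cannot be told apart from the cannula, the infusion and the solvent, and LID + Vehicle values are given beside many of the results. Comparisons that involve LID + Vehicle share arrays with this one, so their values are shown side by side and no agreement between them is counted.

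PD98059 binds the kinase MEK1, and more weakly MEK2, in its inactive form and hinders its activation by RAF. MEK is the kinase that phosphorylates ERK, and active ERK, directly and through RSK and MSK kinases, phosphorylates the transcription factors ELK1 and CREB, which switch on immediate early genes within minutes. In the dopamine-depleted striatum, L-DOPA activates ERK in projection neurons through the dopamine D1 receptor. Over repeated doses ΔFosB, a truncated and more stable isoform of FosB, accumulates there. ERK also induces its own brakes, among them the dual specificity phosphatases and the Sprouty proteins.

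The sequences below belong to genes described in the results. The first set is the mature miRNAs of the 6 miRNA genes among the leading genes, from RefSeq (GRCr8), with the seed (bases 2 to 8) in capitals; no seed is shared between these genes. The array names the miRNA gene, and whether its probes read the primary transcript, the hairpin or the mature form is not given.
rno-miR-214-5p: aGAGUUGUcaugugucu
rno-miR-214-3p: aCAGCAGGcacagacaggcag
rno-miR-483-5p: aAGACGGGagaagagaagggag
rno-miR-483-3p: cACUCCUCcccucccgucuugu
rno-miR-129-5p: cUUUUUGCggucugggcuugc
rno-miR-129-1-3p: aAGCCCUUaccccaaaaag
rno-miR-351-5p: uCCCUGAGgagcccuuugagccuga
rno-miR-351-3p: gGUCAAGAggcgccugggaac
rno-miR-3569: gGAGGACAgcagacucagguc
rno-miR-154-5p: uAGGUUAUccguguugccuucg
rno-miR-154-3p: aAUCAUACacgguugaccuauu

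The second set is the 150 bases upstream of the RefSeq start of Th and of Sstr2 (GRCr8), genes with lower means in LID + PD98059 that were not among the leading genes. They were chosen after their values were seen and are shown because both hold the full cAMP response element TGACGTCA, the letters that CREB binds, given in capitals. Th lies on the minus strand of chromosome 1 (chr1:207508219-207508368), and the element spans bases 69 to 62 before the start. Sstr2 lies on the plus strand of chromosome 10 (chr10:99163203-99163352), and the element spans bases 73 to 66 before the start.
Th: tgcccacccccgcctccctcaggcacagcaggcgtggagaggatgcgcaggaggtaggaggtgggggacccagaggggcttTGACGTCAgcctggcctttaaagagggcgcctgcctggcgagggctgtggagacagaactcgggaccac
Sstr2: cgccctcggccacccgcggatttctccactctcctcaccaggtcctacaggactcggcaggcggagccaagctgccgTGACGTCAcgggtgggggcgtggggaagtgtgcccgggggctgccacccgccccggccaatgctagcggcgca

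No transcript passed the adjusted threshold, which asked for a fold change of 1.2 or more and, after Benjamini-Hochberg adjustment over all transcripts, a p under 0.05 (0 of 36685, 0%). The test was limma over all 15 arrays, and the smallest adjusted p was 0.5785. With p left unadjusted and the fold change kept, called the unadjusted threshold below, 1739 transcripts were called (4.74%), of which 1005 were higher and 734 lower in LID + PD98059. An unadjusted p under 0.05 alone was met by 1969 transcripts (5.37%). With each array centred on the median of its brighter transcripts, the share of higher calls at the unadjusted threshold was 73.4% against 57.8% as deposited. The 3 values of 1 group lay entirely above or below the 3 of the other for 3653 transcripts (9.96%), 1990 higher (5.42%) and 1663 lower (4.53%). An exact permutation test of 3 against 3 arrays cannot give a two-sided p below 0.1. LID + Vehicle against LID also had 0 transcripts past the adjusted threshold, with 680 higher and 669 lower before adjustment, and LID + PD98059 against LID + Vehicle had 0, 853 and 776. All differences below are on the log2 scale of RMA values, LID + PD98059 minus LID, and none of them passed adjustment.

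The direction of the difference depended on the level of the gene. The dim level was 5.85, a value that 95% of 69 olfactory receptor transcripts did not exceed, and a gene named below is called dim when neither group mean exceeds it. Of 10721 genes whose mean over all 15 arrays was above that level, 39.5% were higher in LID + PD98059, with a median difference of -0.03. Of 7445 genes below it, 62.9% were higher, with a median of 0.05. Counts and medians of gene groups are read against these values. Among the 10721 brighter genes, 90 were called higher (0.839%) and 168 lower (1.57%) at the unadjusted threshold, and among all 18166 genes 2.01% higher and 1.36% lower. LID + PD98059 lay entirely above LID for 4.77% of genes and entirely below it for 4.84%.

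**Figure D1:**
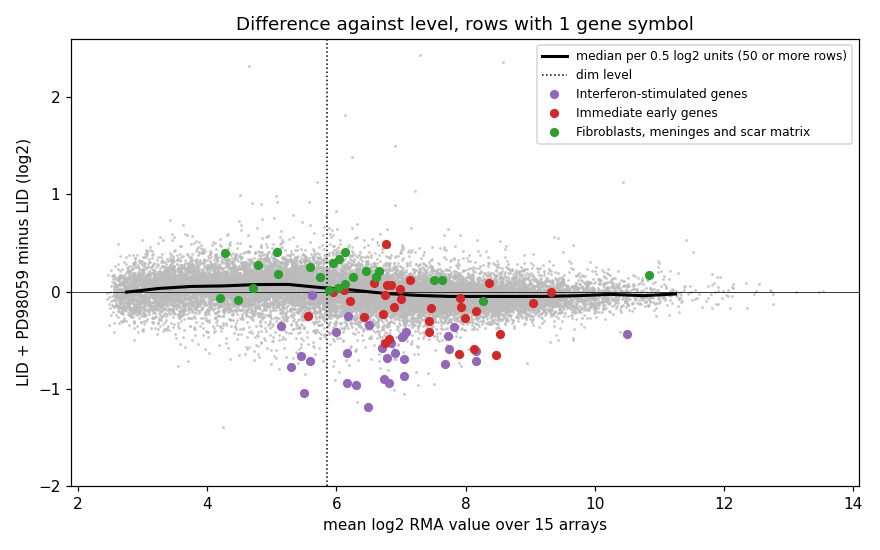
Difference between LID + PD98059 and LID (log2, vertical axis) against the mean log2 RMA value over 15 arrays (horizontal axis) for the 18511 transcripts with 1 symbol; grey points are transcripts, the black line is the running median and the dotted line the dim level of 5.85. The running median lies above 0 among dim transcripts and below 0 among bright ones, immediate early genes (red) lie mostly below it and interferon-stimulated genes (purple) all lie below 0.

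Features of the rats themselves are given before the gene groups. Markers of striatal projection neurons were present on each array, with the mean of 21 identity genes between 9.25 and 9.77 in the 6 rats. Markers of cortical excitatory neurons varied within both groups: Slc17a7, the vesicular glutamate transporter of cortical neurons, stood at 6.55, 8.04 and 9.30 in LID + PD98059 and at 9.20, 7.26 and 9.63 in LID. The arrays also crossed the groups. Over the 16955 transcripts above the dim level, LID + PD98059 replicate 2 correlated at r = 0.976 with LID replicate 3 and at 0.939 with replicate 3 of its own group, and LID + PD98059 replicate 3 correlated at 0.971 with LID replicate 2. In bulk tissue fewer cells of a type and less RNA per cell cannot be told apart. The part of these features in the results below was not tested.

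Among the genes with the smallest p that were higher in all 3 LID + PD98059 rats than in all 3 LID rats, the differences were small, between 0.28 and 0.58. Prr22, a proline-rich protein of little known function, stood at 6.93, 6.85 and 6.995 in LID + PD98059 and at 6.36, 6.46 and 6.49 in LID, a difference of 0.49 ± 0.09 (SE, n = 3 per group; adjusted p = 0.5876 by limma). The LID + Vehicle rats lay between them, at 6.66, 6.64 and 6.74. Slc43a2, a transporter of large neutral amino acids, stood at 7.80, 7.87 and 7.90 against 7.27, 7.33 and 7.62 (0.45 ± 0.10, adjusted p = 0.9147 by limma). Its LID + Vehicle values were 7.55, 7.65 and 7.48, again between the groups. Nid2, the basement membrane protein nidogen 2, stood at 6.39, 6.43 and 6.35 against 5.85, 6.03 and 6.08, with the LID + Vehicle rats at 6.14, 6.03 and 6.03, close to LID.

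Of the 15 genes named in the higher direction, 5 were miRNA genes. Mir214 stood at 7.24, 7.32 and 7.12 against 6.85, 6.75 and 6.80 (0.43 ± 0.10), and Mir483 at 8.12, 7.66 and 8.08 against 7.44, 7.27 and 7.41 (0.58 ± 0.14). The LID + Vehicle rats held Mir483 at 7.72, 7.66 and 8.04, inside the LID + PD98059 range. Mir129-1 (0.47), Mir351 (0.48) and Mir3569 (0.30) were the others. Over all 363 miRNA genes the median difference was 0.05 with 229 higher, the same median as for dim genes in general, and 92 of them were above the dim level. Of the 363 miRNA genes 18 met the unadjusted threshold in the higher direction and 5 in the lower, against 2.01% and 1.36% of all 18166 genes. The share of such calls among dim genes alone was not taken, so these counts are not read as a trait of miRNA genes. Mir154 was the 1 miRNA gene named in the lower direction, at 5.67, 5.58 and 5.35 against 5.82, 6.32 and 6.07.

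The other genes named as higher were Foxb1 (0.41), a forkhead transcription factor, Cd300lb (0.39), a receptor of myeloid cells, Vars2 (0.38), the mitochondrial valyl-tRNA synthetase, Kcne5 (0.37), an accessory subunit of voltage-gated potassium channels, Zfp707 (0.36), Rhbg (0.31), an ammonium transporter, and Fam3a (0.28). A second transcript of Cd300lb stood at -0.05. Vars2 and Fam3a stood higher in LID + PD98059 than in LID + Vehicle as well (0.40 and 0.30), and at -0.02 each between LID + Vehicle and LID.

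The genes named in the lower direction had differences between -0.69 and -0.32. Prim2, the large subunit of DNA primase, stood at 6.32, 6.20 and 6.08 in LID + PD98059 against 6.66, 6.59 and 6.82 in LID (-0.49 ± 0.11, adjusted p = 0.8058 by limma). The LID + Vehicle rats stood at 6.27, 6.40 and 6.19, below all LID rats too, and the PD mean was 6.18. B3galt2, a galactosyltransferase, stood at 7.13, 6.77 and 7.19 against 7.56, 7.80 and 7.55, with LID + Vehicle at 7.36, 7.15 and 7.51 in between. Rabep1, the Rab5 effector rabaptin 5 of early endosomes, stood at 9.51, 9.50 and 8.9997 against 9.79, 9.87 and 9.77, and its difference of -0.48 moved to -0.31 without LID + PD98059 replicate 3, the lowest rat.

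Prkaa1, a catalytic subunit of the AMP-activated kinase, stood at 7.43, 7.50 and 7.49 against 7.87, 7.83 and 7.75 (-0.34 ± 0.09). Tardbp, which encodes the RNA-binding protein TDP-43, stood at 8.24, 8.31 and 8.36 against 8.71, 8.61 and 8.58 (-0.33 ± 0.09), with LID + Vehicle at 8.50, 8.41 and 8.43 between them. The groups did not overlap for either gene. Ythdc2, a helicase that reads methylated RNA, differed by -0.54, Fbxo30, a ubiquitin ligase subunit, by -0.36, Sae1, a subunit of the SUMO-activating enzyme, by -0.39, and Dnajb4, a co-chaperone of HSP70, by -0.38. A second transcript of Dnajb4 differed by -0.07. Rhof, a small GTPase, had the widest difference of this set at -0.69, with LID + PD98059 at 6.16, 6.48 and 6.57 and LID at 7.24, 6.87 and 7.18. Trpc4, a calcium-permeable channel, differed by -0.51, Zbtb26 by -0.48, Nsun7 by -0.44 and Abca3, a lipid transporter, by -0.32.

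**Figure D2:**
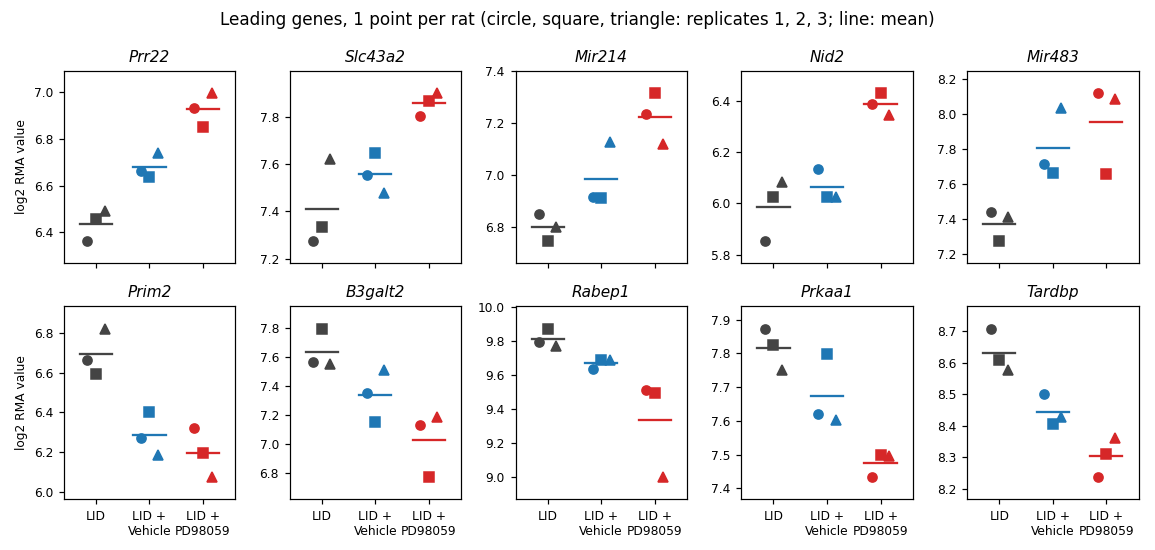
Log2 RMA value (vertical axis) of 5 genes named as higher and 5 named as lower, 1 point per rat in LID, LID + Vehicle and LID + PD98059 (horizontal axis), with the group mean as a line. The rule that chose the genes asked for LID + PD98059 and LID points that do not overlap, and the LID + Vehicle points show the group with a cannula and solvent alone.

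Members of the cascade that PD98059 acts on had differences near those of other genes of like level. Of 28 measured members of the MEK-ERK cascade (of 34 listed), 22 were lower and 6 higher, with a median of -0.06. Among all genes of log2 level 8 to 10, where the mean of the list lay, 68% were lower with a median of -0.05. Of the cascade genes 0 met the unadjusted threshold in either direction. The mean of the list stood at 8.11, 8.10 and 8.08 in LID + PD98059 and at 8.18, 8.16 and 8.17 in LID, without overlap, and at 8.03, 8.19 and 8.19 in LID + Vehicle. With arrays centred on their brighter transcripts or quantile normalized, the median was -0.03 with 19 of 28 lower. Map2k1, which encodes MEK1, stood at 9.56, 9.71 and 9.51 against 9.74, 9.80 and 9.79 (-0.18 ± 0.10, adjusted p = 0.9389 by limma), and its LID + Vehicle values of 9.78, 9.75 and 9.77 matched LID. Creb1, the CREB gene, stood at 7.66, 7.56 and 7.69 against 8.05, 7.76 and 7.81 (-0.24, and -0.15 without LID replicate 1), and its second transcript differed by -0.43. Sos1, which loads RAS with GTP, stood at 8.20, 8.12 and 7.98 against 8.38, 8.52 and 8.19, a difference of -0.26 with overlapping groups. Kinase activity and phosphorylation are not read by these arrays.

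The genes that ERK induces to limit itself did not separate the groups. Of 24 ERK feedback targets, 14 were lower and 10 higher (median -0.05), 0 met the unadjusted threshold and 0 were without overlap. Without LID replicate 2 the median was 0.01 with 13 of 24 higher, and it was -0.02 without LID + PD98059 replicate 2 or LID replicate 3. Dusp6, the ERK phosphatase, stood at 7.23, 7.59 and 7.09 against 7.25, 7.26 and 7.64. Spry4, a Sprouty inhibitor, differed by -0.25 ± 0.17, Dusp4 by -0.24 ± 0.16, and the ERK-responsive factors Etv5 and Etv4 by -0.25 and 0.20. The LID + Vehicle rats differed among themselves: the list mean was 7.50 in replicate 1 and 6.86 and 6.80 in the others, against 6.69 to 6.71 in LID + PD98059 and 6.69 to 6.77 in LID. Dusp6 stood at 8.51 in that LID + Vehicle rat.

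Immediate early genes were lower in LID + PD98059 as a group. Of 31 measured (of 35 listed), 23 were lower and 8 higher with a median of -0.16, and 4 were lower at the unadjusted threshold and 0 higher. Among all genes of log2 level 6 to 8, where the list mean of both groups lay, 57.6% were lower with a median of -0.03. Of the brighter genes 1.57% were called lower at that threshold. The list mean stood at 7.17, 7.13 and 7.11 in LID + PD98059, at 7.28, 7.29 and 7.35 in LID and at 8.17, 7.46 and 7.30 in LID + Vehicle. The LID + PD98059 rats were thus below every LID and LID + Vehicle rat, while 1 LID + Vehicle rat stood far above the rest. The PD rats stood at 7.17, 7.14 and 7.21, close to LID + PD98059. The Normal rats stood at 7.30, 7.26 and 7.20, above every LID + PD98059 rat and overlapping LID. The median was -0.08 without LID + PD98059 replicate 3 and -0.09 without replicate 2, and 21 to 23 of the 31 genes were lower whichever of the 6 rats was left out.

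**Figure D3:**
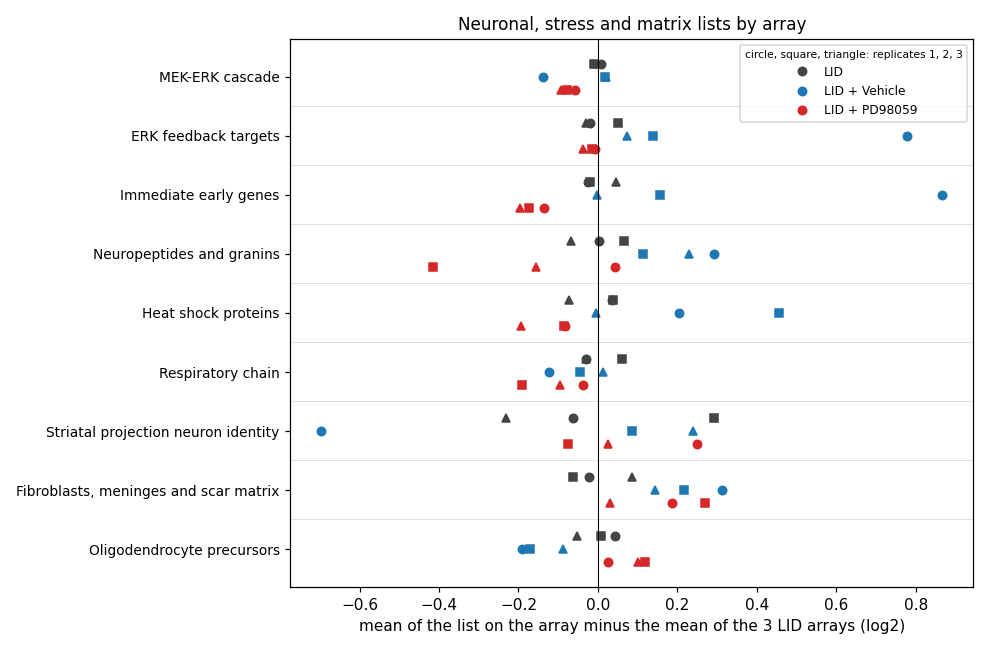
Mean log2 value of 9 gene lists on each array minus the mean of the 3 LID arrays (horizontal axis, log2), by list (vertical axis), for LID (black), LID + Vehicle (blue) and LID + PD98059 (red). The red points of the immediate early genes and of the MEK-ERK cascade lie together below the LID points, and LID + Vehicle replicate 1 stands apart for the immediate early, feedback and projection neuron lists.

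The 4 immediate early genes at the unadjusted threshold were Fosb, Egr3, Sik1 and Nr4a3. Fosb encodes the AP-1 subunit FosB and its truncated isoform ΔFosB, and which of them this transcript reads is not given. Fosb stood at 6.41, 5.93 and 6.57 in LID + PD98059 against 6.83, 7.02 and 6.65 in LID (-0.53 ± 0.18, adjusted p = 0.915 by limma), and the difference was -0.35 without LID + PD98059 replicate 2. The LID + Vehicle rats stood at 7.41, 7.10 and 6.97, above both groups, save for 1 LID rat at 7.02. The PD mean was 6.78, near the LID mean of 6.83. The study describes the Fosb probes of this array as probably imperfect in design. It reports that only 1 of 4 probes for the gene showed the trend it looked for, and that this probe carries another symbol. The transcript read here is a different one, and other probes that the study assigns to the gene were not analysed here. Egr3, a zinc finger factor, stood at 7.97, 7.06 and 7.91 against 8.48, 8.47 and 7.91 (-0.64 ± 0.22), so that 1 LID + PD98059 rat lay above the lowest LID rat, and the difference was -0.35 without LID + PD98059 replicate 2. Sik1, a salt-inducible kinase induced through CREB, stood at 7.50, 7.31 and 7.29 against 7.62, 7.84 and 7.54 (-0.30 ± 0.11). Nr4a3, an orphan nuclear receptor, stood at 6.96, 6.08 and 6.50 against 7.10, 7.05 and 6.86 (-0.49 ± 0.21), and was -0.27 without LID + PD98059 replicate 2. The LID + Vehicle means were 8.45 for Egr3, 7.85 for Sik1 and 6.86 for Nr4a3.

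Other well-known members overlapped between the groups. Fos, the classic marker of neuronal activation, stood at 6.39, 7.04 and 5.98 against 6.69, 6.30 and 7.12 (-0.23 ± 0.47), with LID + Vehicle at 8.97, 7.12 and 6.56. Egr1 stood at 9.13, 8.73 and 8.47 against 8.87, 8.92 and 8.89 (-0.12 ± 0.16). Arc, whose mRNA is carried to active synapses, stood at 8.32, 7.28 and 8.09 against 8.28, 8.23 and 7.79 (-0.20 ± 0.23). The SE of these genes leaves room for differences in either direction, and each changed sign when 1 of the rats was left out. Gadd45b, a stress-induced gene, stood at 7.14, 7.37 and 7.30 against 7.33, 7.82 and 7.90 (-0.41 ± 0.24). The LID + Vehicle means were above the LID means for Egr1 (9.35 against 8.89), Arc (8.73 against 8.10) and Gadd45b (7.97 against 7.68).

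Th, Trh, Inhba and Pdyn have been linked to L-DOPA in the lesioned striatum, and of these Th alone met the unadjusted threshold. Th, tyrosine hydroxylase, the rate-limiting enzyme of dopamine synthesis, stood at 5.77, 5.91 and 6.45 in LID + PD98059, at 6.27, 6.98 and 6.83 in LID and at 6.93, 7.48 and 6.84 in LID + Vehicle (-0.65 ± 0.25 against LID, adjusted p = 0.915 by limma). The PD mean was 5.51 and the Normal mean 5.58, both under the dim level, and 1 LID + PD98059 rat stood within the LID range. Th was the 1 gene at the unadjusted threshold among the 15 measured genes of catecholamine synthesis and handling, whose median was 0.10 with 10 higher and 5 lower. Trh, the precursor of thyrotropin-releasing hormone, stood at 8.70, 7.81 and 7.51 against 8.47, 8.61 and 8.26 (-0.44 ± 0.24), with LID + Vehicle at 8.93, 8.86 and 8.99 and a PD mean of 5.13. Its difference was -0.20 without LID + PD98059 replicate 3 and -0.79 without replicate 1. Inhba, the activin A subunit, stood at 8.80, 7.74 and 8.25 against 8.82, 9.39 and 8.45 (-0.62 ± 0.30), with LID + Vehicle at 9.70, 8.93 and 9.14. Its difference was -0.35 without LID + PD98059 replicate 2 and -0.36 without LID replicate 2. Pdyn, the dynorphin precursor of direct pathway neurons, stood at 10.11, 9.48 and 9.43 against 9.60, 10.06 and 9.67 (-0.10 ± 0.31), with LID + Vehicle at 9.32, 10.09 and 10.09 and a PD mean of 7.90. Its sign changed when 1 of the rats was left out.

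Neuropeptide and granin genes were lower in 19 of 23 measured cases with a median of -0.17, and 0 met the unadjusted threshold. The list mean stood at 8.02, 7.56 and 7.82 in LID + PD98059 and at 7.98, 8.04 and 7.91 in LID, with overlap, and without LID + PD98059 replicate 2, the lowest rat, the median was -0.01 with 13 of 23 lower, and it was -0.26 without replicate 1. The LID + Vehicle means were 8.27, 8.09 and 8.20. Cck, the cholecystokinin gene, stood at 7.33, 7.49 and 7.89 against 7.998, 7.80 and 8.09 (-0.40 ± 0.26), and Vgf, a granin-like precursor, at 8.13, 7.38 and 7.97 against 7.90, 8.44 and 7.97 (-0.28 ± 0.19). The difference of Vgf was -0.05 without LID + PD98059 replicate 2, -0.11 without LID replicate 2 and -0.43 without LID + PD98059 replicate 1, and its LID + Vehicle mean was 8.64.

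Of the 30 genes that the study names for its arrays, 22 were matched here, 15 lower and 7 higher with a median of -0.16, which was -0.07 without LID replicate 2. In the lower direction 5 met the unadjusted threshold (Hcrtr1, Th, Fosb, Ubash3b and Sik1), in the higher direction 2. Fosb is counted by a transcript other than the one that the study singled out. The study chose most of these genes on the same LID and LID + PD98059 arrays, so their direction here is not independent evidence. Ubash3b, a phosphatase that dampens tyrosine kinase signalling, had the tightest values: 7.06, 7.04 and 7.10 in LID + PD98059, 7.35, 7.39 and 7.42 in LID, 7.71, 7.57 and 7.64 in LID + Vehicle, and a PD mean of 6.84 (-0.32 ± 0.10 against LID, adjusted p = 0.915 by limma). The 3 groups under L-DOPA formed 3 separate levels. Hcrtr1, the orexin receptor 1, stood at 5.53, 5.62 and 5.71 against 6.15, 6.86 and 5.99 (-0.71 ± 0.24, and -0.45 without LID replicate 2), with a PD mean of 5.30, so that its LID + PD98059 values were under the dim level. The 2 at the threshold in the higher direction were Srpk3, a kinase of splicing factors, dim at 4.85, 5.27 and 5.03 against 4.60, 4.48 and 4.85 (0.41 ± 0.17), and Zfp316, also dim (0.36). Hspa4, a heat shock protein, differed by -0.15, Map2k6, a kinase of the p38 pathway, by 0.16, and Hook2, a microtubule linker, by 0.31.

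Some further genes that stood low in PD, high in LID and lower again in LID + PD98059 are given as values chosen after they were seen. Sstr2, the somatostatin receptor 2, stood at 6.68, 5.86 and 7.13 in LID + PD98059, 7.37, 7.87 and 7.59 in LID, and 6.97, 8.37 and 7.88 in LID + Vehicle, with a PD mean of 6.50 (-1.05 ± 0.33 against LID, adjusted p = 0.915 by limma). B3gnt5, an enzyme of glycolipid synthesis, stood at 5.64, 5.19 and 5.30 against 5.89, 6.49 and 5.78 with a PD mean of 4.29, and its LID + PD98059 values were under the dim level. Tnfrsf11b, osteoprotegerin, stood at 7.59, 7.59 and 7.81 against 8.22, 8.17 and 8.10 with a PD mean of 7.21. In all 3 genes, picked with their values known, the LID + PD98059 and LID rats did not overlap. LID + PD98059 lay entirely below LID for 4.84% of all genes.

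**Figure D4:**
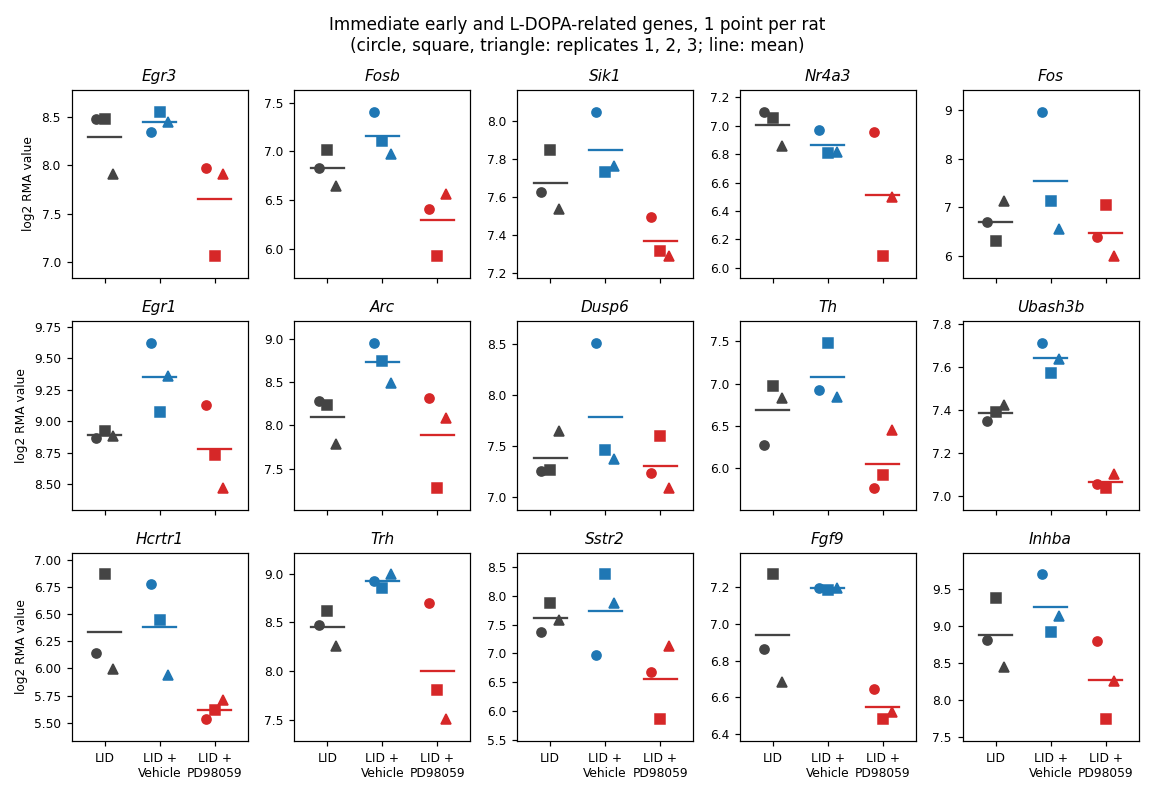
Log2 RMA value (vertical axis) of 15 immediate early and L-DOPA-related genes, 1 point per rat in LID, LID + Vehicle and LID + PD98059 (horizontal axis), with the group mean as a line. Ubash3b, Sik1, Hcrtr1, Fosb, Sstr2 and Fgf9 separate LID + PD98059 from LID, whereas the groups overlap for Fos, Egr1, Arc, Dusp6, Trh and Inhba.

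The promoters given for Th and Sstr2 are 2 of 12 with the full cAMP response element among the 156 genes above the dim level in either group that met the unadjusted threshold in the lower direction and have a RefSeq promoter, 7.69%. The window ran from 250 bases before the start to 50 after it, and TGACGTCA reads the same on both strands. Among the 76 such genes in the higher direction 0 held it, and 292 of the 9003 genes above the dim level with a promoter did (3.24%), as did 612 of all 33469 promoters (1.83%). Of the 23 measured immediate early genes with a promoter entry 4 held it: Ier2, Jund, Maff and Vgf. Fosb and Sik1 did not hold the full element in this window. These counts describe letters in a window and were not tested.

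Receptors, channels and growth factors gave scattered values. Htr1f, the serotonin 1F receptor, stood at 7.08, 7.32 and 6.99 against 7.48, 8.03 and 7.36 (-0.49 ± 0.20, and -0.29 without LID replicate 2), the 1 gene of 35 measured monoamine, acetylcholine and adenosine receptors at the unadjusted threshold. Fgf9, a neuronal fibroblast growth factor, stood at 6.64, 6.48 and 6.52 against 6.87, 7.27 and 6.68 (-0.39 ± 0.14, and -0.23 without LID replicate 2), with LID + Vehicle at 7.20, 7.19 and 7.20. Nrtn, the neurotrophic factor neurturin, stood at 6.27, 5.97 and 6.11 against 5.94, 5.46 and 5.82 (0.38 ± 0.14, and 0.24 without LID replicate 2). Of 33 measured potassium channel genes 24 were lower and 9 higher (median -0.08), with Kcnip4, a Kv4 channel subunit, lower at the threshold (-0.32, and -0.18 without LID + PD98059 replicate 1) and Kcnj9, a G protein-gated channel, and Kcne5 higher (0.33 and 0.37); without LID + PD98059 replicate 2 the median was 0.01, and without LID replicate 2 it was 0.00 with 17 of 33 lower. It was -0.13 without LID + PD98059 replicate 1 or LID replicate 3. Of 29 measured glutamate receptor and scaffold genes 19 were lower (median -0.05), and the NMDA subunit Grin3a (-0.33) and the dim kainate receptor subunit Grik1 (-0.34) met the threshold. That median was 0.05 without replicate 2 of either group, -0.10 without LID + PD98059 replicate 3 and -0.14 without LID replicate 3.

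Markers of striatal projection neurons, taken as a list, did not differ between the groups beyond the spread of the rats. Of 21 identity genes 17 were higher and 4 lower (median 0.09), but list means of 9.73, 9.40 and 9.50 overlapped the LID means of 9.42, 9.77 and 9.25, and the median was -0.02 without LID + PD98059 replicate 1 and -0.03 without LID replicate 3. The median was 0.24 without LID replicate 2 and 0.14 without LID + PD98059 replicate 2. At the unadjusted threshold 1 identity gene was lower and 0 higher, against 1.36% and 2.01% of all genes. The lowest difference in the list was -0.59. Drd2, the D2 receptor of indirect pathway neurons, stood at 10.69, 10.21 and 10.16 against 10.36, 10.37 and 9.95, and Adora2a, the adenosine receptor of the same cells, at 10.18, 10.01 and 9.66 against 10.01, 10.00 and 9.55. Among 14 measured interneuron markers 12 were lower (median -0.13). Slc18a3, the vesicular acetylcholine transporter of cholinergic interneurons, was dim at 5.41, 5.31 and 5.38 against 5.72, 5.86 and 5.71 (-0.40 ± 0.13) and at 6.03, 5.92 and 6.00 in LID + Vehicle. Without LID + PD98059 replicate 2 the interneuron median was 0.04, without replicate 3 it was -0.27, and without LID replicate 2 it was -0.08.

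Heat shock and respiratory chain genes were mostly lower. Of 23 measured heat shock genes 18 were lower (median -0.13). Among all genes of log2 level 8 to 10, where the list mean lay, 68% were lower (median -0.05). Dnajb4 and Chordc1, an HSP90 co-chaperone, were at the unadjusted threshold, and the second transcript of Dnajb4 differed by -0.07. Chordc1 stood at 8.15, 8.08 and 8.13 against 8.48, 8.59 and 8.29, and Dnaja1, an HSP40 co-chaperone, at 10.13, 9.95 and 9.89 against 10.33, 10.30 and 10.17, both without overlap. The heat shock list mean stood at 8.90, 8.89 and 8.79 in LID + PD98059, 9.01, 9.02 and 8.91 in LID, and 9.18, 9.44 and 8.97 in LID + Vehicle. As deposited, every LID + PD98059 rat was below every other rat with L-DOPA, but narrowly. The nearest means were 8.8956 in LID + PD98059 replicate 1 and 8.906 in LID replicate 3. Over the alternatives of the closing section the heat shock median was between -0.16 and -0.08. Of 28 measured respiratory chain genes 24 were lower with a median of -0.09, against -0.05 for genes of log2 level 8 to 10, and Ndufa2, a complex I subunit, met the threshold at 6.22, 6.62 and 6.37 against 6.63, 6.88 and 7.13. The respiratory chain median was -0.05 with quantile normalization, with 21 lower, and -0.05 without replicate 2 of either group. Gclc, which limits glutathione synthesis, stood at 7.83, 7.70 and 7.72 against 8.01, 8.20 and 7.92.

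Matrix and astrocyte genes leaned the other way. Of 24 measured fibroblast, meningeal and scar matrix genes 21 were higher and 3 lower, with a median of 0.15, and 0 met the unadjusted threshold. The list mean stood at 6.29, 6.37 and 6.13 against 6.08, 6.04 and 6.19, with overlap, and at 6.42, 6.32 and 6.25 in LID + Vehicle, the other group with a cannula. Col1a1, the collagen I chain, stood at 6.28, 6.48 and 5.99 against 6.00, 5.56 and 6.19 (0.33 ± 0.17), and the difference was 0.15 without LID replicate 2 and 0.22 without LID + PD98059 replicate 2. Of 13 measured homeostatic astrocyte genes 12 were higher (median 0.14), and the median was 0.04 without LID + PD98059 replicate 3. Oligodendrocyte precursor genes were higher in 10 of 12 cases (median 0.09), and the median was 0.04 without LID replicate 3. Aqp1, the water channel of choroid plexus, stood at 6.46, 6.23 and 6.40 against 5.98, 6.00 and 6.00 (0.37 ± 0.12, adjusted p = 0.915 by limma), without overlap, and at 6.14, 6.19 and 6.51 in LID + Vehicle. Sox4, a factor of immature neurons, stood at 7.23, 6.96 and 7.17 against 6.66, 6.85 and 6.80 (0.35 ± 0.14), and Anpep, a peptidase of pericytes, at 5.66, 6.13 and 6.00 against 5.40, 5.26 and 5.34 (0.60 ± 0.27). The lists of these 2 genes had no common direction. Of 15 measured ventricular zone and neuroblast genes 8 were higher and 7 lower (median 0.02, largest 0.35). Of 20 measured endothelial and pericyte genes 13 were higher and 7 lower (median 0.04, largest 0.60).

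Reactive astrocyte and cytokine genes were mixed in direction. Of 21 measured reactive astrocyte genes 14 were higher and 7 lower (median 0.15), and the median was -0.21 and -0.23 without replicate 2 of LID + PD98059 and of LID, and 0.44 and 0.34 without replicate 3 of each. Of 26 measured cytokine and chemokine genes 15 were higher and 11 lower (median 0.11), and of the 12 above the dim level 5 were higher and 7 lower (median -0.02). The cytokine median was -0.12 and -0.03 without replicate 2 of LID + PD98059 and of LID, and 0.34 and 0.31 without replicate 3 of each. The genes described next are examples with wide differences. Lcn2, the iron-binding lipocalin 2 of reactive astrocytes, stood at 9.70, 10.66 and 7.22 in LID + PD98059, 6.92, 5.76 and 7.59 in LID, and 11.05, 11.02 and 7.46 in LID + Vehicle (2.43 ± 0.94 against LID, adjusted p = 0.915 by limma). In each cannulated group 2 rats were high and 1 lay within the LID range. Serpina3n, an acute phase protease inhibitor, followed with 7.97, 9.32 and 6.27 against 6.20, 6.19 and 6.68, and 10.59, 8.06 and 6.73 in LID + Vehicle. Its difference was 0.77 without LID + PD98059 replicate 2 and 2.29 without replicate 3. Il1b, interleukin 1 beta, was dim at 4.74, 5.54 and 4.31 against 4.03, 3.44 and 4.15 (0.99 ± 0.41, and 0.65 without LID + PD98059 replicate 2), and stood at 6.57, 6.12 and 4.62 in LID + Vehicle. Gfap, the astrocyte filament protein, stood at 11.06, 11.99 and 10.84 against 11.78, 10.78 and 12.09, with no separation.

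Interferon-stimulated genes were lower in LID + PD98059 in 31 of 31 measured cases with a median of -0.63, yet 0 met the unadjusted threshold and 0 were without overlap. The list mean stood at 6.32, 8.25 and 6.12 in LID + PD98059 and at 7.81, 6.14 and 8.60 in LID, so 1 LID + PD98059 rat was high and 1 LID rat was low. The LID + Vehicle means were 7.90, 7.48 and 6.00. Rsad2, the antiviral enzyme viperin, stood at 5.65, 8.41 and 5.31 against 7.83, 6.04 and 9.07 (-1.19 ± 0.95), and Oas1b, an oligoadenylate synthetase, at 5.86, 7.76 and 4.62 against 7.25, 5.61 and 8.21 (-0.94 ± 0.76). The list median was -0.05 without LID replicate 3, -0.21 without LID + PD98059 replicate 3 and -0.32 without replicate 1, and it was -1.33 without LID + PD98059 replicate 2 and -1.28 without LID replicate 2. Members of such a list are read in the same rats and are not separate measurements of the condition.

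Antigen presentation and cell cycle genes had the same high and low rats. Of 21 measured antigen presentation genes 19 were lower (median -0.36), with list means of 7.61, 8.66 and 7.05 against 8.62, 6.64 and 9.03. The median was 0.10 without LID replicate 3 and -0.04 without LID + PD98059 replicate 3, -0.20 without LID replicate 1, and -0.74 and -1.03 without replicate 2 of LID + PD98059 and of LID. Of 25 measured cell cycle genes 24 were lower (median -0.41), with list means of 5.73, 6.60 and 5.61 against 6.20, 5.67 and 7.20. Mki67, the proliferation marker, stood at 6.93, 9.11 and 6.20 against 8.26, 6.81 and 10.04. The cell cycle median was 0.04 without LID replicate 3, -0.17 without LID + PD98059 replicate 3, -0.27 without replicate 1 and -0.71 without replicate 2, and -0.66 without LID replicate 2.

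Microglial markers moved with these lists between rats but not between groups. The mean of 26 microglia and macrophage genes stood at 8.47, 9.31 and 7.70 in LID + PD98059 and at 8.93, 7.17 and 9.02 in LID, and at 9.32, 8.69 and 8.05 in LID + Vehicle. The median over the list was 0.13 with 18 of 26 higher, and it was -0.19 without LID + PD98059 replicate 2 and -0.48 without LID replicate 2. It was 0.49 without LID + PD98059 replicate 3, 0.42 without LID replicate 1 and 0.39 without LID replicate 3. Apoe, the apolipoprotein of astrocytes and microglia, stood at 11.10, 10.97 and 11.31 against 10.90, 10.90 and 10.64 (0.31 ± 0.13) without overlap, and Mrc1, a receptor of perivascular macrophages, at 6.19, 5.80 and 6.26 against 5.80, 5.91 and 5.39 (0.39 ± 0.16, and 0.23 without LID replicate 3). With the microglia list mean of each array as a covariate, an alternative chosen after the data were seen, 0 transcripts passed the adjusted threshold, and the immediate early median was -0.15 and the interferon median -0.78. The part of microglial content in the single genes was not tested further.

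**Figure D5:**
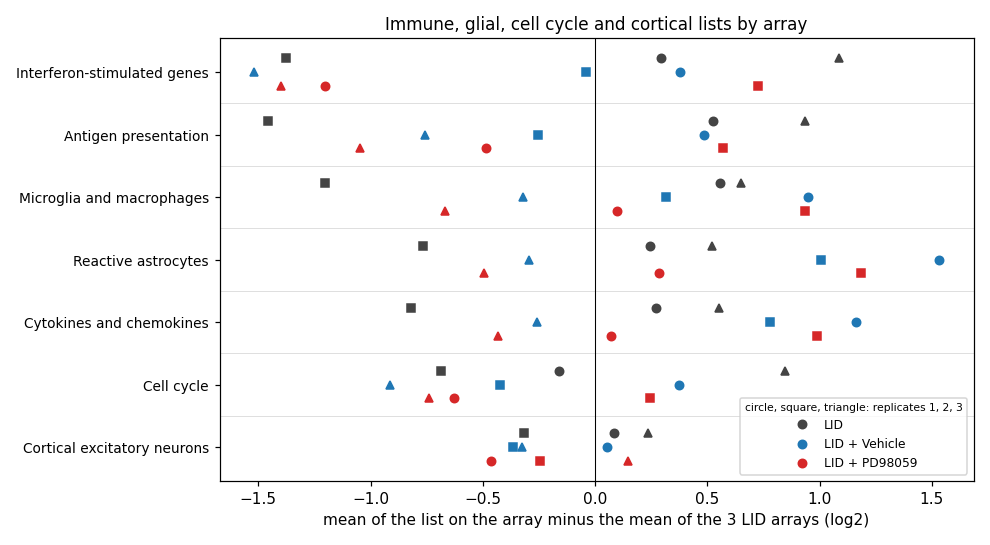
Mean log2 value of 7 gene lists on each array minus the mean of the 3 LID arrays (horizontal axis, log2), by list (vertical axis), for LID (black), LID + Vehicle (blue) and LID + PD98059 (red). Among the black and red points, LID + PD98059 replicate 2 and LID replicates 1 and 3 lie at the high end of the interferon, antigen presentation, microglia and cell cycle lists, and LID replicate 2 and LID + PD98059 replicate 3 at the low end.

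The group means of Arnt, Penk and Map2k2 nearly coincided. Arnt, the partner of the aryl hydrocarbon receptor, stood at 8.38, 8.44 and 8.53 in LID + PD98059 and at 8.41, 8.48 and 8.46 in LID, and the 17 measured partners and targets of that receptor had a median of 0.00 with 9 lower and 8 higher, 0 at the unadjusted threshold. Penk, the enkephalin precursor of indirect pathway neurons, stood at 12.29, 11.94 and 11.75 against 11.94, 12.27 and 11.74. The means of Map2k2, which encodes MEK2, differed by -0.03.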

How the data were processed

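The deposited table holds log2 signals that the authors obtained from Rat Gene 2.0 ST arrays (Affymetrix) with Expression Console (version not stated), using RMA for background and for normalization across arrays. The level of summary (exon or transcript) is not given in the table. Values were used as deposited, and 3 arrays per group limit the precision. Each array is 1 rat.

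Groups were compared in R 4.3.3 with limma 3.58.1 (statmod 1.5.0): lmFit and eBayes without trend, 1 mean per group over 15 arrays, two-sided, Benjamini-Hochberg over 36685 transcripts, fold change of at least 1.2. The script was tested on simulated data. Symbols came from the platform table (575 transcripts with several symbols and 17599 with none were not named); the brightest transcript stands for a gene. Lists (40, with 819 of 934 symbols measured) are counts and medians without a test. Named genes are, per direction, 15 above the dim level without overlap and with the smallest p, up to 5 per list, and genes the study names. Members and lists were chosen with earlier results of these data known. Alternatives are given in the closing section. Figures used Python 3.11.15 and matplotlib 3.10.9.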

Additional observations from a re-analysis of the deposited data

How the results depend on the processing

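The count of transcripts past the adjusted threshold was 0 under all alternatives run: the 6 arrays alone, each rat left out, the replicate block, dim transcripts removed, centring on brighter transcripts, quantile normalization, eBayes with trend and robust, array weights, adjustment over transcripts with 1 symbol and, added after seeing the data, the microglia covariate. The count at the unadjusted threshold, 1739, was between 1535 and 2180 with a rat left out. It was 615 with dim transcripts removed (296 higher, 319 lower), where fewer transcripts were tested. It was 1938 with centring (1423 higher, 515 lower) and 1559 with quantile normalization (797 higher, 762 lower); the cause was not tested.

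The titles do not say whether replicate numbers pair the rats. Deviations from the group means correlated at 0.00, -0.637 and -0.426 between rats of the same number, and with so few rats per group these values cannot decide it. The fit with the replicate block gave 0 and 1708 transcripts at the adjusted and unadjusted thresholds.

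A set of 109 genes was followed through the alternatives. It held most genes named above and some that are not, such as Chrm4 and Tap1. It left out Arnt, Penk, Map2k2 and Zfp316. In this set 1495 of 1512 alternative values kept their direction and 0 passed adjustment. Of the 17 that turned, all but 2 came from leaving out 1 rat. With 1 rat left out, the lowest and highest values were: Fos -0.52 to 0.0124, Egr1 -0.29 to 0.0352, Arc -0.42 to 0.10, Dusp6 -0.23 to 0.0471, Etv5 -0.39 to 0.0163, Pdyn -0.32 to 0.0375, Drd2 -0.0409 to 0.23, Adora2a -0.0521 to 0.24, Gfap -0.64 to 0.0157, Psmb10 -0.80 to 0.0178 and Bub1 -1.01 to 0.0343. Pdyn was 0.0135 with array weights, and the second transcript of Cd300lb was -0.0515, where the one among the leading genes differed by 0.39. Of 600 list medians, 577 moved by less than the spread between rats of the list mean and 23 by more. That spread (SD) was 1.18 in LID + PD98059 and 1.26 in LID for the interferon list. Its medians between -1.33 and -0.05 therefore all count as moved by less, and the count does not show that such medians are stable. Signal over background is low for the 7445 genes under the dim level. A drug effect cannot be told apart from that of the cannula and solvent here.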
